A study of Homo sapiens with 4 samples.

Results

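The tripartite motif (TRIM) genes encode a large family of mostly ubiquitin ligases. Their transcripts were examined in LX-2, a single immortalised line of human hepatic stellate cells, the liver cells that lay down collagen when they are activated. Members were the protein-coding genes whose symbol is TRIM followed by a number and at most 1 letter, and 73 of the 63677 gene identifiers in the count table met that rule. The antiviral members and *TRIM23*, whose rise in these libraries was already known, were set apart. Cells were transfected with 20 nM of an miR-6133-5p mimic or of miControl, a negative control miRNA mimic, and both groups received rhTGF-β1, the recombinant form of a growth factor that drives fibrosis, at 5 ng/mL after 24 h. RNA was collected 24 h after rhTGF-β1, with 2 libraries in each group, so every comparison below is between mimics in rhTGF-β1-treated cells.

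A TRIM protein typically carries a RING domain, which recruits an E2 ubiquitin-conjugating enzyme, then B-box and coiled-coil domains, and a C-terminal domain that binds the substrate. The C-terminal domain sorts the family into classes, of which the PRY-SPRY class is the largest. Many PRY-SPRY members act in innate immunity, either by binding viral proteins or by modifying the sensors of viral RNA and DNA and the adaptors below them, and several are themselves induced by interferon. A few members, such as *TRIM14*, *TRIM16*, *TRIM44* and *TRIM66*, lack the RING domain.

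The mimic stands for 1 arm of the MIR6133 precursor, and the precursor is shown to identify the agent. RefSeq places its hairpin of 108 bases on the plus strand of chr7:133290881-133290988 (GRCh38.p14).
MIR6133 hairpin: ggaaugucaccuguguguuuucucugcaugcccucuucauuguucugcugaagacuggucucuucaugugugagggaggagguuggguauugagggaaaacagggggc

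Total counts were 51862006 and 57903388 in the miControl libraries, and 61747010 and 93811213 in the miR-6133-5p libraries. Levels are given as counts per 1000000 library counts (CPM), and 3 counts were worth at most 0.0610 CPM. Log2 levels correlated between replicates of a group at a Pearson r of 0.991 in both groups, across genes, which are not independent replicates. Set against counting error, the miR-6133-5p replicates differed more from each other than the miControl replicates did. The chi-square statistic, divided by its degrees of freedom, was 44.3 for miR-6133-5p and 12.8 for miControl. That value also grows with depth, and the miR-6133-5p libraries were deeper. Its link to splits of single genes between replicates was not tested. Nothing in the labels says that the replicates came from separate cultures, so p-values measure only the spread between these libraries. The stellate label could be checked in part. *COL1A1* stood at 3112 and 2723 CPM in miControl and at 995 and 1133 CPM with miR-6133-5p. *LRAT* and *DES*, also listed as stellate markers, reached at most 0.0706 CPM. The 10 stellate markers summed to 8983 and 8419 CPM in miControl and to 6258 and 5630 CPM with miR-6133-5p. Of these, 8 were tested and 3 were called lower, or 37.5% where 5.54% of all tested genes were. Their median log2 fold change was -0.76, and their values ran from -2.40 to 0.42. Of other liver cells, *ALB* of hepatocytes reached at most 0.0605 CPM, *PTPRC* of leukocytes 0.232 CPM, *CDH5* of endothelium 0.184 CPM and *KRT19* of cholangiocytes 0.182 CPM. The summed level of the leukocyte markers was 9.07 to 11.02 CPM in miControl and 9.07 to 9.23 CPM with miR-6133-5p. That of the hepatocyte markers was 2.01 to 2.52 CPM and 2.34 to 2.84 CPM, and that of the endothelial markers 0.624 to 0.732 CPM and 1.10 to 1.35 CPM. The cholangiocyte sum was 83.9 to 85.3 CPM in miControl and 36.8 to 39.9 CPM with miR-6133-5p, nearly all of it from *SOX9*, which was called lower with a log2 fold change of -1.36. The part of these markers in the results below was not tested.

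Of the 73 members, 43 had enough counts to be tested, and 30 did not. A gene was called higher or lower when edgeR's adjusted p was under 0.01 and the log2 fold change, miR-6133-5p over miControl, lay beyond 0.8 in size. By this rule 4 tested members fell, *TRIM58*, *TRIM16*, *TRIM14* and *TRIM62*, which is 9.30% of the tested members where 5.54% of all 18252 tested genes fell. *TRIM23*, *TRIM6* and *TRIM22* were called higher, or 6.98% of the tested members against 2.9% of all tested genes. Without *TRIM23*, which was set apart with its rise known, 2 of 42 members rose. The family had no common direction. The median log2 fold change was 0.01 over the tested members and 0.03 over all tested genes. Members stood above 0 in 23 cases and below it in 20, and 18 lay within 0.2 of it. An adjusted p under 0.01 at any fold change was reached by 15 members, or 34.9%, against 18.8% of all genes, and 8 of these 15 stayed within 0.8. An unadjusted p under 0.05 was reached by 20 members, or 46.5%, against 40.3% of all genes. The libraries of the groups did not overlap for 24 members, or 55.8%, against 64.4% of all genes. In bulk RNA, less RNA per cell and fewer cells of one kind cannot be told apart for any of these differences.

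**Figure D1:**
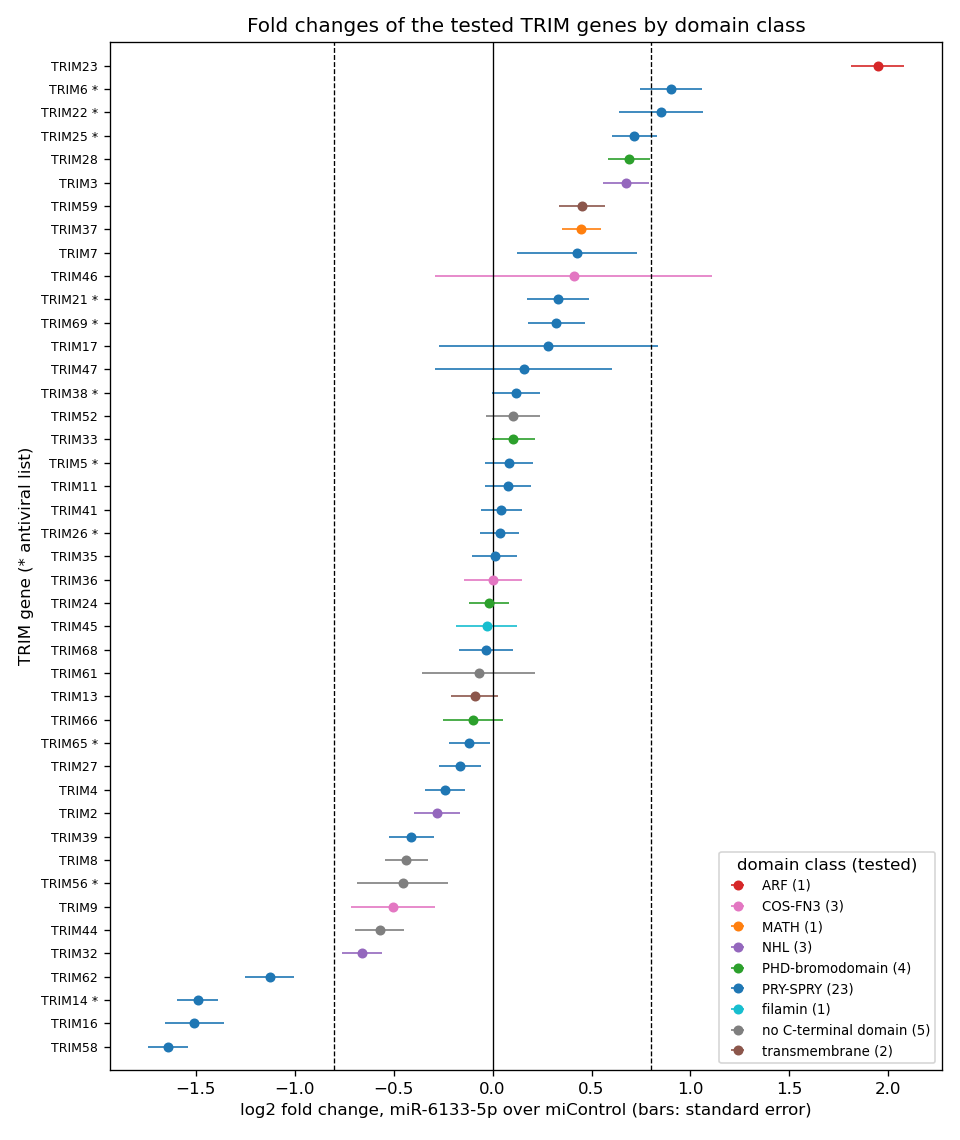
Log2 fold change of miR-6133-5p over miControl (x axis) for the 43 tested TRIM genes (y axis), with standard errors from edgeR on 2 libraries per group. Colours mark domain classes, asterisks the antiviral list, and dashed lines the 0.8 threshold. *TRIM23* stands alone at the top at 1.95, and the 4 genes called lower, all of the PRY-SPRY class, are set apart at the bottom between -1.13 and -1.64.

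The summed level of all members was 1623 and 1612 CPM in the miControl libraries and 1620 and 1643 CPM in the miR-6133-5p libraries, nearly level on the TMM scale. As a share of library counts without that scaling, it was 0.154% and 0.152% in miControl and 0.172% and 0.174% with miR-6133-5p. The make-up of the total differed more. *TRIM28* alone gave 13.8% and 13.2% of the family's counts in miControl and 22.8% and 20.5% with miR-6133-5p. *TRIM23* gave 0.666% and 0.878% in miControl and 2.86% and 3.04% with miR-6133-5p.

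Levels were compared between members per length, as CPM per kb of exon. *TRIM28*, the KRAB zinc finger corepressor also known as KAP1, was the most abundant member in all 4 libraries, with a mean level of 66.4 CPM per kb. *TRIM37*, a ligase of peroxisomes and centrioles, followed at 22.8 CPM per kb and *TRIM8*, a regulator of cytokine signalling, at 17.4 CPM per kb. The lowest tested member was *TRIM46*, at 0.0348 CPM per kb. In this order, 36 of the 42 pairs of neighbours had overlapping values over all 4 libraries and 6 did not. These ranges include the difference between the groups, so they do not show whether ranks within a group can be told apart. *TRIM28* was apart from *TRIM37*, and *TRIM8* from *TRIM26*, but *TRIM37* and *TRIM8* overlapped. With miR-6133-5p alone, *TRIM37* stood at 26.0 and 26.6 CPM per kb and *TRIM8* at 15.7 and 13.9. In miControl they stood at 18.8 and 19.8, and at 20.8 and 19.3. By group means of the level per length, *TRIM23* moved from rank 24 in miControl to rank 5 with miR-6133-5p. *TRIM58* and *TRIM14* went from ranks 4 and 5 to ranks 16 and 15.

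**Figure D2:**
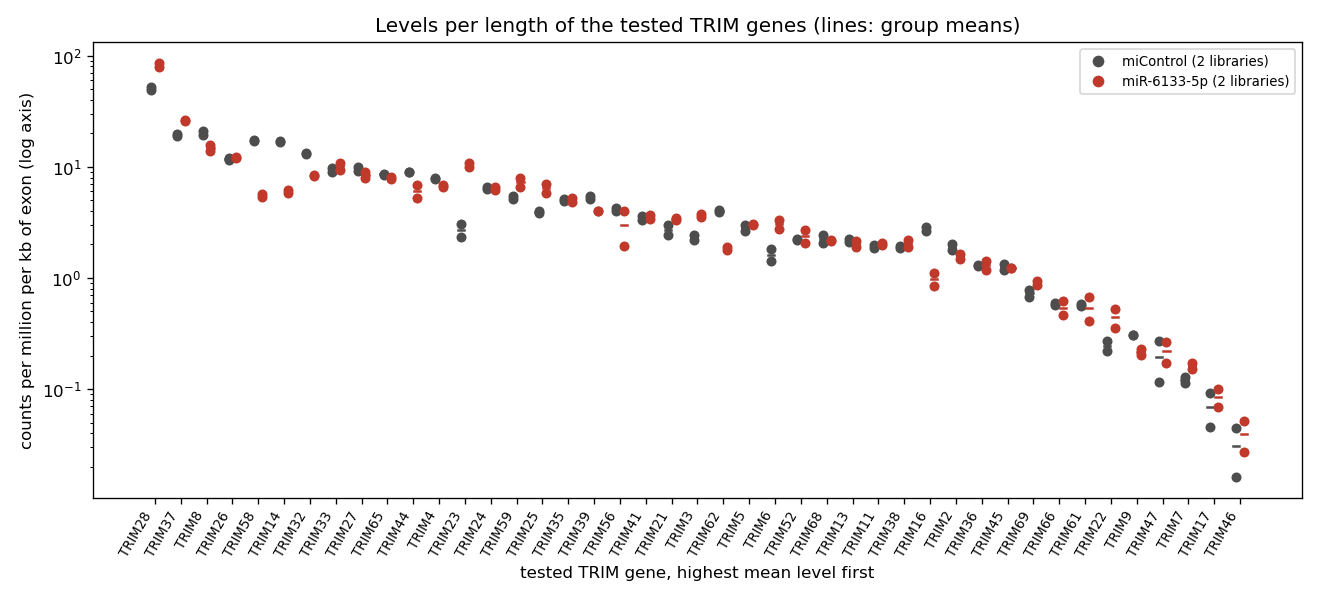
Level of each tested TRIM gene in CPM per kb of exon (log y axis), ordered by the mean over all 4 libraries, with points for libraries and short lines for group means of 2 libraries. The family spans from 66.4 CPM per kb for *TRIM28* to 0.0348 for *TRIM46*, and *TRIM58*, *TRIM14* and *TRIM23* show the widest gaps between groups among the 13 genes with the highest levels.

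*TRIM23* differs from the rest of the family in carrying an ADP-ribosylation factor (ARF) GTPase domain at its C-terminus, and it is known to act in antiviral autophagy by activating the kinase TBK1. Its level was 10.8 and 14.2 CPM in the miControl libraries and 46.3 and 49.9 CPM in the miR-6133-5p libraries. Both treated libraries stood far above both controls, by 3.85-fold in the fitted means, or 1.95 ± 0.13 (standard error) on the log2 scale. By that value *TRIM23* ranked 85 of all 18252 tested genes, and 5 of the 9603 with a mean of at least 8 CPM. The 8 CPM cutoff was arbitrary, and both ranks rest on the rise for which the gene was set apart. Leaving out 1 library at a time gave log2 fold changes of 1.75 to 2.13. The gene lies on the minus strand of chr5:64885517-64921802 (GRCh37), and its exons overlap no other annotated exon. These values are a description, since the gene was singled out for its rise.

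Genes related to *TRIM23* by its ARF domain or its role in autophagy took both directions. Of 12 genes of the ARF family and its exchange factors, all tested, 2 fell, or 16.7% against 5.54% of all genes. For a rise, edgeR and DESeq2 both called 0, with 6 above 0 at an unadjusted p under 0.05. In either direction 83.3% reached that p, against 40.3% of all genes. *ARF1*, the main coat-recruiting ARF of the Golgi, was at 299 and 268 CPM in miControl and at 124 and 114 CPM with miR-6133-5p, which is a log2 fold change of -1.25. *ARF3* stood at 121 and 120 CPM in miControl and fell to 48.3 and 53.5 CPM, a log2 fold change of -1.24. *TBK1* had a log2 fold change of 0.32 and was not called. *SQSTM1*, the autophagy receptor p62, rose from 172 and 159 CPM to 311 and 306 CPM, a log2 fold change of 0.89.

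The antiviral list held 12 members, of which 11 were tested and *TRIM34* was not. *TRIM6* and *TRIM22* were called higher and *TRIM14* lower, and 8 did not pass. That is 18.2% called higher and 9.09% called lower, where 2.9% and 5.54% of all tested genes were. The median log2 fold change of the list was 0.12. Both miR-6133-5p libraries lay above both miControl libraries for 5 of the 11 and below them for 2, so 63.6% did not overlap, close to the 64.4% of all genes.

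*TRIM14* gave the clearest change in the list. It encodes a mitochondrial adaptor without a RING domain that works with MAVS, the relay of RNA sensing. Its level was 92.9 and 91.2 CPM in miControl and 31.8 and 33.7 CPM with miR-6133-5p. The treated level was 35.6% of the control level, or -1.49 ± 0.10 (standard error) on the log2 scale, with an edgeR adjusted p of 3.61e-07. Of its exon bases, 7.70% lie opposite exons of *NANS*. It held its call in all 4 fits with 1 library left out.

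*TRIM6*, which makes free ubiquitin chains that activate the kinase IKKε, stood at 5.67 and 7.14 CPM in miControl and at 13.1 and 10.9 CPM with miR-6133-5p. The fitted log2 fold change was 0.90 ± 0.15 (standard error), with an edgeR adjusted p of 0.000668. It sat close to the fold threshold, and without miControl replicate 1 or miR-6133-5p replicate 1 its log2 fold change was 0.74 and 0.75 and the call was lost. A readthrough transcript with *TRIM34* shares 29.2% of its exon bases on the same strand, so reads of the readthrough and of *TRIM6* cannot be separated there.

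*TRIM22*, an interferon-induced restrictor of HIV and hepatitis B virus transcription, was measured at 2.77 and 3.38 CPM in miControl and at 4.40 and 6.66 CPM with miR-6133-5p. The fitted log2 fold change of 0.85 ± 0.21 (standard error) had an edgeR adjusted p of 0.00827, the called value nearest to both thresholds. The groups did not overlap, but the treated libraries differed from each other by more than the controls did. The call was lost without miControl replicate 1 (log2 fold change 0.71), without miControl replicate 2 (0.98, adjusted p 0.0339) and without miR-6133-5p replicate 2 (0.50). It held only when miR-6133-5p replicate 1 was left out.

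*TRIM25*, which attaches K63-linked ubiquitin to the RNA sensor RIG-I and is a cofactor of the zinc finger antiviral protein ZAP, stood at 47.4 and 49.6 CPM in miControl and at 72.4 and 86.9 CPM with miR-6133-5p. The fitted log2 fold change was 0.72 ± 0.11 (standard error) with an edgeR adjusted p of 0.000354, so it passed the p threshold and missed the fold threshold. Without miR-6133-5p replicate 1 it was 0.82 and the gene was called higher.

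*TRIM21*, the cytosolic antibody receptor, stood at 5.76 and 4.70 CPM in miControl and at 6.48 and 6.66 CPM with miR-6133-5p. The groups did not overlap, but its log2 fold change of 0.33 ± 0.16 (standard error) did not pass, with an edgeR adjusted p of 0.134. *TRIM69*, which acts against dengue virus, was similar, at 7.26 and 6.21 CPM in miControl and 8.04 and 8.77 CPM with miR-6133-5p, which is a log2 fold change of 0.32 and an edgeR adjusted p of 0.114.

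*TRIM56*, a partner of the DNA sensing adaptor STING, was split between the treated libraries. It stood at 47.2 and 44.3 CPM in miControl, and at 21.5 CPM in miR-6133-5p replicate 1 but 45.0 CPM in replicate 2. The groups overlapped and the log2 fold change of -0.46 ± 0.23 (standard error) was not called, with an edgeR adjusted p of 0.16. Without miR-6133-5p replicate 2 it was -1.10 with an adjusted p of 6.44e-09, and the gene was called lower.

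The remaining antiviral members varied little. *TRIM5*, which binds retroviral capsids, was at 16.1 and 14.2 CPM in miControl and 16.3 and 15.9 CPM with miR-6133-5p. *TRIM26*, a regulator of IRF3, was at 52.9 and 50.5 CPM in miControl and 53.1 and 52.9 CPM with miR-6133-5p. *TRIM38*, which turns over TAB2, was at 17.3 and 18.1 CPM in miControl and 17.8 and 20.6 CPM with miR-6133-5p. *TRIM65*, which acts on the RNA sensor MDA5, was at 33.0 and 33.5 CPM in miControl and 31.3 and 30.0 CPM with miR-6133-5p. Only for *TRIM65* did the groups not overlap, and its log2 fold change was -0.12. The others lay between 0.04 and 0.12.

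**Figure D3:**
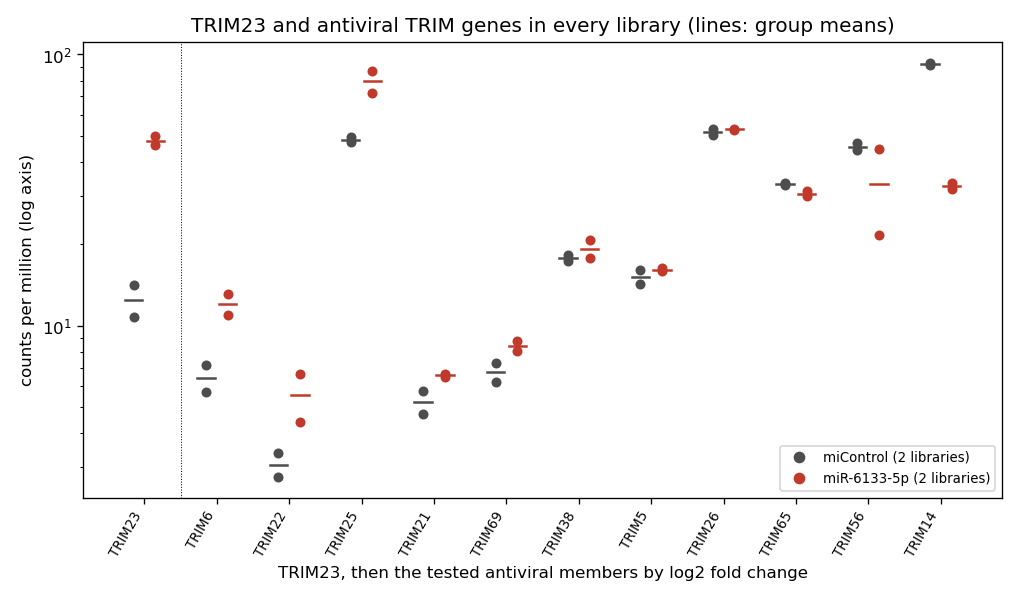
Level in CPM (log y axis) of *TRIM23* and of the 11 tested antiviral TRIM genes in each of 2 miControl and 2 miR-6133-5p libraries, with short lines for group means. *TRIM23* stands at 46.3 and 49.9 CPM with miR-6133-5p against 10.8 and 14.2 CPM in miControl, *TRIM14* moves the opposite way, and the treated points of *TRIM56* are split at 21.5 and 45.0 CPM.

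The sensors and adaptors that antiviral members act on were counted beside them. Of 15 listed sensing genes, 13 were tested and 3 rose, or 23.1% against 2.9% of all genes, and their median log2 fold change was -0.03. For a fall, edgeR and DESeq2 both called 0, with 3 below 0 at an unadjusted p under 0.05. Those called higher were *IFIH1*, which encodes MDA5 (log2 fold change 0.94), *SQSTM1* and *IRF7*, the transcription factor of late interferon induction (0.83). With 1 library left out, *IFIH1* ran from 0.79 to 1.03 and *IRF7* from 0.78 to 0.84, so neither stayed beyond 0.8. *SQSTM1* ran from 0.81 to 0.94. The following pairs were chosen after their values were seen. Beside *TRIM14* at -1.49, *MAVS* had a log2 fold change of -0.54 that was not called, with 82.7 and 74.7 CPM in miControl and a split of 36.6 and 71.2 CPM with miR-6133-5p, the replicate order also seen for *TRIM56*. Beside *TRIM25* at 0.72, *RIGI*, the gene of RIG-I, was at 0.23 and *ZC3HAV1*, the gene of ZAP, at -0.12. *IKBKE*, which encodes the IKKε partner of *TRIM6*, was listed at 0 under the identifier matched to it. So was *IKBKG*, a gene that nearly every cell uses, and neither 0 is read as lack of expression. *TRIM65* at -0.12 contrasts with its partner *IFIH1* at 0.94.

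Interferon-stimulated genes outside the family were counted as a reference for the antiviral members. Of 30 listed, 29 were tested, 4 rose (*IFIT1*, *IFIT3*, *MX2* and *IFI35*), or 13.8% against 2.9% of all genes, and their median log2 fold change was 0.58. For a fall, edgeR and DESeq2 both called 0, with 1 below 0 at an unadjusted p under 0.05. Both miR-6133-5p libraries lay above both controls for 25 of the 29 and below them for 2. So 93.1% did not overlap, against 64.4% of all genes in either direction. *IFIT1*, a binder of viral RNA ends, stood at 5.61 and 5.36 CPM in miControl and at 17.8 and 22.7 CPM with miR-6133-5p. Of 12 genes of interferon signalling, 10 were tested and edgeR and DESeq2 both called 0, with 1 gene at an adjusted p under 0.01. An unadjusted p under 0.05 was reached by 4 of them, or 40.0%, against 40.3% of all genes. *IFNB1* and *IFNL1*, which encode interferons, were listed at 0 in every library.

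**Figure D4:**
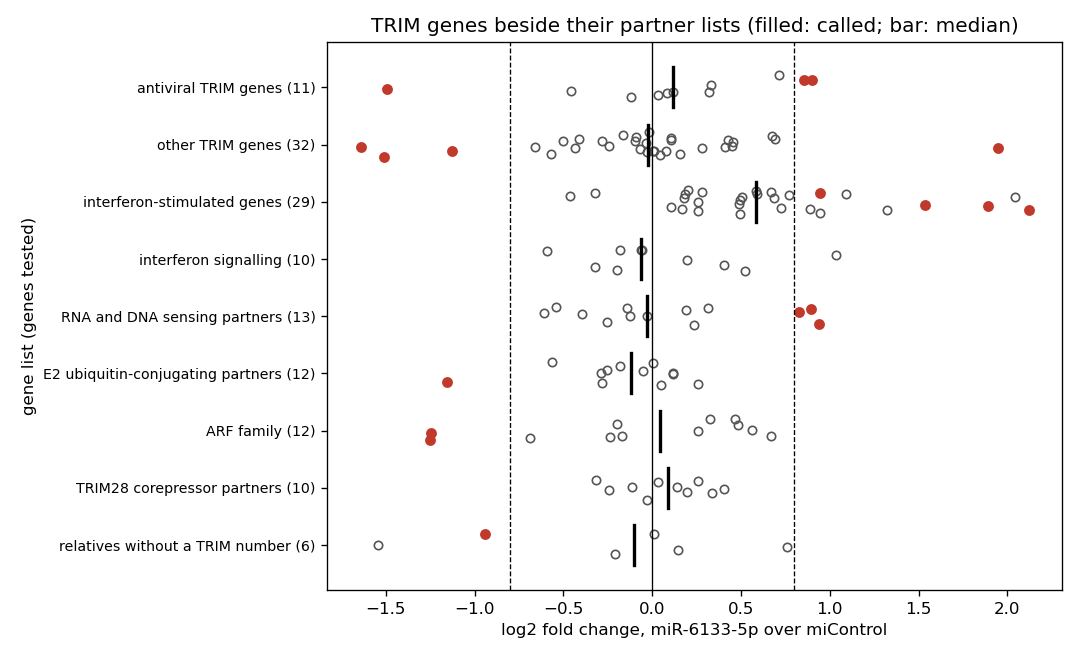
Log2 fold changes (x axis) of the antiviral and the other TRIM genes and of 7 lists of partner or related genes (y axis, with the number tested). Filled points are called genes, bars are medians and dashed lines mark 0.8. The antiviral TRIM genes centre on 0.12, whereas the interferon-stimulated genes centre on 0.58.

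The core of the interferon-stimulated response element, the DNA motif through which interferon acts on promoters, was searched in RefSeq promoter windows (GRCh38.p14, 250 bases before to 50 after each gene's start). The letters searched were GAAA, any 2 bases and GAAA, on both strands, and no other motif was searched. They occurred in 996 of 27305 windows, or 3.65%, in 10 of the 58 members with a window, and in 17 of 25 windows of the interferon-stimulated list. Among antiviral members 6 of 11 windows held it, and *TRIM22* had no entry. The matches of the antiviral members, and of *TRIM16* as the other called member with one, are printed 5′ to 3′ along the gene's strand with 10 bases on each side, beside *IFIT1* for reference. Capitals mark the motif, which reads as TTTC, any 2 bases and TTTC where it lies on the opposite strand.
TRIM14, chr9:98119229-98119258, minus strand: acggccgaggTTTCGGTTTCccttgggagc
TRIM21, chr11:4393666-4393695, minus strand: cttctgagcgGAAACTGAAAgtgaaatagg
TRIM5, chr11:5685082-5685111, minus strand: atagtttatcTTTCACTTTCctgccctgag
TRIM26, chr6:30213581-30213610, minus strand: tcccgcctgaTTTCAGTTTCcatttcgctg
TRIM34, chr11:5624901-5624930, plus strand: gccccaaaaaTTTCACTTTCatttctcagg
TRIM69, chr15:44736456-44736485, plus strand: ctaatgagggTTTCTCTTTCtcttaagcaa
TRIM16, chr17:15683012-15683041, minus strand: acagaggtaaGAAATAGAAAtaaagggtcc
IFIT1, chr10:89392497-89392526, plus strand: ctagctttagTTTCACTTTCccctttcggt

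The match began at -26 from the start in *TRIM14*, at -27 in *TRIM5*, at -62 in *TRIM69* and at -90 in *TRIM34*. *TRIM21* held 2 overlapping matches at 18 and 24 after the start, and *TRIM26* held 2 at -194 and -188. Outside the antiviral list, *TRIM16* held a match at -80, *TRIM44* at -35 and *TRIM2* at -217. Of the 8 tested members with the motif, *TRIM14* and *TRIM16* fell, where 5.54% of all tested genes did. The other 6 were not called, with *TRIM44* at -0.57, *TRIM2* at -0.28, and *TRIM26*, *TRIM5*, *TRIM69* and *TRIM21* between 0.04 and 0.33. The median log2 fold change was -0.12 over the 8 tested members with the motif and 0.10 over tested members with a window and no match, beside 0.11 over the 337 tested genes with the motif and 0.03 over the 11568 without. A match is a description of the letters and not a bound site.

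The other members called lower also belonged to the PRY-SPRY class. *TRIM58*, which acts on the dynein motor when red cell precursors expel their nucleus, had the largest fall among the tested members. Its level was 88.0 and 90.3 CPM in miControl and 29.3 and 27.9 CPM with miR-6133-5p, a drop to 32.1%, or -1.64 ± 0.10 on the log2 scale (standard error, edgeR adjusted p 1.96e-07). The gene lies on the plus strand of chr1:248020489-248043440 (GRCh37) without exon overlap. Its mean level per length was close to that of *TRIM14* in both groups. In miControl they stood at 17.2 and 16.8 CPM per kb, and with miR-6133-5p at 5.53 and 5.97 CPM per kb.

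*TRIM16*, which takes part in the clearance of damaged lysosomes, was at 16.2 and 15 CPM in miControl and 6.22 and 4.80 CPM with miR-6133-5p. The fitted log2 fold change was -1.51 ± 0.15 (standard error, edgeR adjusted p 7.09e-06), and the fall held in every fit with a library left out. The value is uncertain in part, because 23.5% of its exon bases overlap another gene on the same strand and a near-identical copy, *TRIM16L*, lies elsewhere on chromosome 17. *TRIM16L*, annotated as a pseudogene and so no member, had a log2 fold change of -0.87. How reads matching both copies were counted is not given in the sources used here.

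*TRIM62*, a ligase of the fungal sensing adaptor CARD9, stood at 15.7 and 16.2 CPM in miControl and 7.07 and 7.51 CPM with miR-6133-5p. The fitted log2 fold change was -1.13 ± 0.12 (standard error) with an edgeR adjusted p of 1.84e-05. When edgeR tested against a log2 fold change of 0.8 rather than 0, its adjusted p was 0.0687, whereas *TRIM58*, *TRIM16* and *TRIM14* still passed.

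The PRY-SPRY class had 41 members, of which 23 were tested, 2 rose and 4 fell. These are 8.70% and 17.4% of the class, against 2.9% and 5.54% of all genes, and its median log2 fold change was 0.04. It held all members called except *TRIM23*. Of the uncalled PRY-SPRY members outside the antiviral list, *TRIM39* stood lowest at -0.41, followed by *TRIM4* at -0.24 and *TRIM27* at -0.17. *TRIM7*, *TRIM17* and *TRIM47* were above 0, at 0.43, 0.28 and 0.16, but each averaged under 1.2 CPM and had a standard error of 0.30 to 0.55. *TRIM68*, *TRIM35*, *TRIM41* and *TRIM11* lay between -0.03 and 0.08.

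The PHD-bromodomain class acts in the regulation of transcription, and all 4 of its members were tested. *TRIM28* stood at 224 and 213 CPM in miControl and at 369 and 337 CPM with miR-6133-5p. The fitted log2 fold change of 0.69 ± 0.10 (standard error) had an edgeR adjusted p of 0.00026 and missed the fold threshold. *TRIM24* at -0.02, *TRIM33* at 0.10 and *TRIM66* at -0.10 differed by less than their standard errors. *TRIM33* is a known cofactor of SMAD proteins in TGF-β signalling, and it was at 85.9 and 93.9 CPM in miControl and 90.0 and 103 CPM with miR-6133-5p. Of 10 corepressor partners of *TRIM28*, edgeR and DESeq2 both called 0, and their median log2 fold change was 0.09. An unadjusted p under 0.05 was reached by 4, or 40.0%, against 40.3% of all genes.

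Among the NHL members, *TRIM32*, a ligase of muscle maintenance, and *TRIM3*, a ligase of neurons, lay on opposite sides of 0 within the fold threshold. *TRIM32* was at 49.5 and 49.98 CPM in miControl and 31.8 and 31.1 CPM with miR-6133-5p, which is a log2 fold change of -0.66 with an edgeR adjusted p of 0.000298. *TRIM3* was at 16.2 and 14.6 CPM in miControl and 23.9 and 25.2 CPM with miR-6133-5p, which is a log2 fold change of 0.68 with an edgeR adjusted p of 0.000686. *TRIM2* was at -0.28, and *TRIM71*, a regulator of early development, had 0 counts in every library.

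*TRIM37*, the MATH domain member, was at 103 and 108 CPM in miControl and 143 and 146 CPM with miR-6133-5p, which is a log2 fold change of 0.45 with an edgeR adjusted p of 0.00442. *TRIM8* was at 145 and 135 CPM in miControl and 110 and 97.3 CPM with miR-6133-5p, which is a log2 fold change of -0.44 with an edgeR adjusted p of 0.00774. For both, the groups did not overlap and the fold threshold was missed. *TRIM8* has 19.3% of its exon bases opposite a divergent transcript and *TRIM37* 11.1% opposite other genes.

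Of the other members placed here as lacking a C-terminal domain, *TRIM44* was at -0.57, *TRIM61* at -0.07 and *TRIM52* at 0.11. The transmembrane members *TRIM59* and *TRIM13* were at 0.45 and -0.09, and the filamin domain member *TRIM45* at -0.03. Of the COS-FN3 class, which binds microtubules, *TRIM9* was at -0.50, *TRIM36* at 0.00 and *TRIM46* at 0.41 with a standard error of 0.70. *TRIM44* and *TRIM59* reached an adjusted p under 0.01 within 0.8, as did *TRIM3*, *TRIM8*, *TRIM25*, *TRIM28*, *TRIM32* and *TRIM37*. *TRIM59* has 19.9% of its exon bases opposite *SMC4* and 14.0% shared with another gene on the same strand. More than 10% of exon bases were shared with another gene on the same strand in 6 tested members, and on the opposite strand in 6.

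Relatives of the family whose symbols carry no TRIM number were counted too. Of 8 listed, 6 were tested, and only *MID2*, a microtubule-bound ligase, was called, falling from 10.2 and 11.4 CPM to 5.20 and 5.99 CPM, a log2 fold change of -0.94. That is 16.7% called lower, against 5.54% of all genes. Log2 fold changes of the 6 ran from -1.54 to 0.76, and the relatives at these ends were not called. The libraries of the groups did not overlap for 5 of the 6, or 83.3%, against 64.4% of all genes. *PML*, the organiser of nuclear bodies, was at 0.14, and *MID1* at 0.01. Of 12 E2 ubiquitin-conjugating enzymes, all tested, *UBE2D3*, a general partner of RING ligases, fell from 404 and 402 CPM to 191 and 171 CPM, a log2 fold change of -1.15, and no other was called, so 8.33% fell against 5.54% of all genes. *UBE2N*, which builds K63-linked chains, was at -0.57 and was not called.

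Several antiviral members lie together on chromosome 11, within chr11:4406127-6495689 (GRCh37). This stretch held 7 members, *TRIM21*, *TRIM68*, *TRIM6*, *TRIM34*, *TRIM5*, *TRIM22* and *TRIM3*, of which 6 were tested. *TRIM6* and *TRIM22* were called higher, where 2.9% of all tested genes were. Both calls were lost in some of the fits with 1 library left out. *TRIM5*, whose span on the minus strand encloses *TRIM22*, was at 0.08 and was not called. A second stretch, chr6:25963030-30311506, held 8 members, of which 4 were tested. There edgeR and DESeq2 both called 0, and 1 had an unadjusted p under 0.05, where 40.3% of all tested genes did.

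The 30 members that were not tested include 19 with 0 counts in all 4 libraries and 11 with at most 29 counts in any library. *TRIM34* had 2 and 5 counts in miControl and 6 and 11 with miR-6133-5p, and it shares 83.6% of its exon bases with the *TRIM6* readthrough. *TRIM73* and *TRIM74*, near-identical copies of each other, had the highest counts among them, up to 22 and 29. *TRIM10*, *TRIM31*, *TRIM40*, *TRIM54*, *TRIM55*, *TRIM60*, *TRIM72* and *TRIM75* had a few counts in at least 1 library. *TRIM15*, *TRIM29*, *TRIM42*, *TRIM43*, *TRIM43B*, *TRIM48*, *TRIM49*, *TRIM49B*, *TRIM49C*, *TRIM50*, *TRIM51*, *TRIM51G*, *TRIM63*, *TRIM64*, *TRIM64B*, *TRIM64C*, *TRIM67*, *TRIM71* and *TRIM77* were listed at 0, which allows up to 3 counts, or 0.0610 CPM in the shallowest library, for counting error only. A gene can also be listed at 0 where its reads stand under another identifier, and 8012 identifiers with 0.700% of all counts were matched to no symbol. The muscle members *TRIM54*, *TRIM55* and *TRIM63*, which make up the COS class, were all among those not tested.

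Scaling by library totals alone, without TMM factors, raised the median over all tested genes from 0.03 to 0.19 on the log2 scale and that of the members from 0.01 to 0.17. With it *TRIM3*, *TRIM25* and *TRIM28* passed 0.8, so 6 members were called higher and 4 lower, where 5.35% and 3.88% of all genes were. With miControl replicate 1 left out, 1 member, *TRIM23*, was called higher. Across the fits with 1 library left out, 1 to 3 members were called higher and 4 or 5 lower. *TRIM23*, *TRIM58*, *TRIM16* and *TRIM14* kept their calls under all of the alternatives run. An exact permutation test of 2 libraries against 2 cannot give a p below 0.333, so no single member could be tested in that way.

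**Figure D5:**
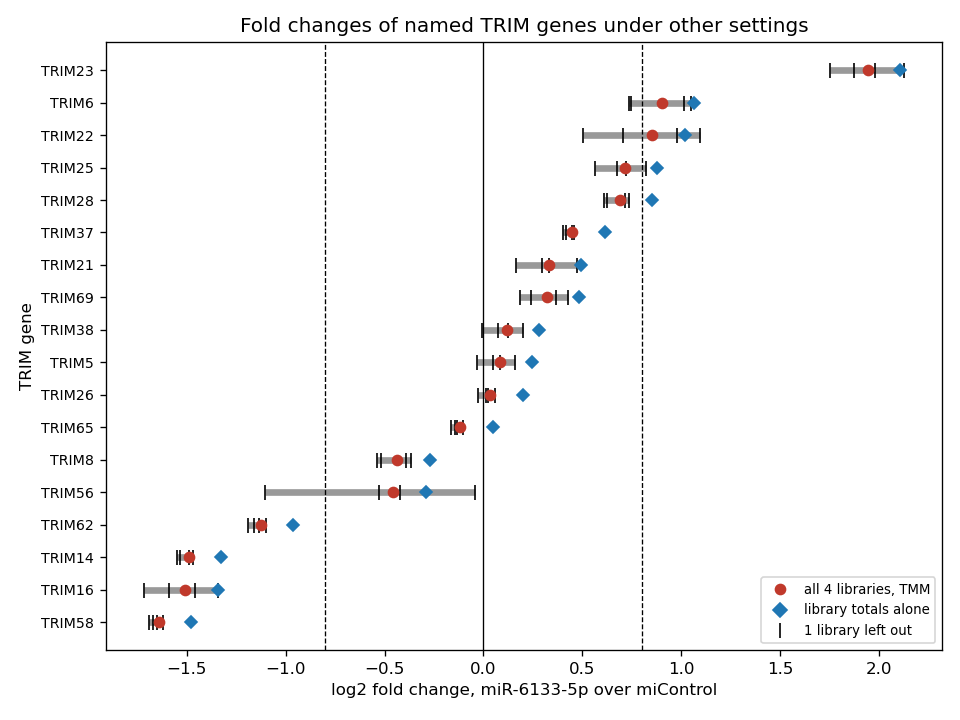
Log2 fold change (x axis) of 18 named TRIM genes (y axis) from all 4 libraries, with library totals alone, and with 1 library left out (ticks, the grey bar showing their range), dashed lines marking 0.8. *TRIM22* runs from 0.50 to 1.10 and *TRIM56* from -1.10 to -0.04, while *TRIM58*, *TRIM14*, *TRIM16* and *TRIM23* stay beyond 0.8.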

How the data were processed

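Per the labels and the study's methods, polyA+ RNA of LX-2 cells was made into TruSeq Stranded mRNA libraries and sequenced as paired reads of 150 bases. The authors aligned the reads to GRCh37 with STAR 2.5.3a and deposited whole-number counts per Ensembl gene. The submitters' processing notes also name featureCounts and Subread 1.6.4. The annotation release and strand setting are not given in the sources used here, so antisense reads may be included. Counts per uniquely mapped pair were 1.68 to 1.70, so counts are not independent molecules, and floors cover counting error only. The deposited single-library files held the same counts as the table of the whole series (0 genes differed).

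Identifiers were matched to GENCODE 44 on GRCh37, and 55665 of 63677 matched. The counts were fitted with edgeR 4.0.16 (TMM, filterByExpr, quasi-likelihood F test, 2-sided, Benjamini-Hochberg adjustment over 18252 genes), with the study's thresholds of 0.01 and 0.8. Other scalings, filters and tests, and fits with 1 library left out, were tried. CPM values use the TMM library sizes. Levels per length divide by the union of exons. On simulated counts, 149 of 200 genes changed by a log2 of 1.5 were called, and 2 others. The members and lists were chosen with earlier results of these data known. Values in every library were planned for *TRIM23*, the tested antiviral and called members, those nearest a threshold and the 3 most abundant per length. They are also printed for other members, such as *TRIM33*. R 4.3.3, Python 3.11.15 and matplotlib 3.10.9 were used.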

Additional observations from a re-analysis of the deposited data

How the results depend on the processing

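With library totals alone, 6 members were called higher, and the median log2 fold changes were 0.17 over the members and 0.28 over the antiviral members. *TRIM65* then turned to 0.046. Testing against 0.8 (glmTreat) left 1 member and 0 antiviral members called higher. In the edgeR fit against 0, 4 antiviral members above 0 had an unadjusted p under 0.05, and DESeq2 1.42.0 called 2 higher. Leaving out 1 library in turn gave 1 to 3 members called higher and 4 to 5 lower. Over the antiviral members it gave 0 to 2 higher and 1 to 2 lower. The lone library of a group was then assumed to vary like the other group. *TRIM5* then ran from -0.031 to 0.16 and *TRIM26* from -0.025 to 0.057, both below 0 without miControl replicate 2, and *TRIM38* from -0.0087 to 0.20, below 0 without miR-6133-5p replicate 2. The cause was not tested. RLE factors, DESeq2, no filter and at least 10 counts in every library kept 3 members higher and 4 lower. Deviations of the replicate 1 libraries from their group means correlated at 0.05 across genes. With 2 libraries per group this is only 1 comparison, since replicate 2 mirrors replicate 1. It cannot exclude a shared batch or culture, so whether the replicate numbers pair the libraries is not known. A fit with the replicate block also called 3 members higher and 4 lower, and over all genes 642 higher and 1130 lower against 529 and 1011 without the block. Over all genes glmTreat called 80 higher and 326 lower, and library totals 977 and 709. Matches of the seed in the transcripts of members were not run, as the mature miR-6133-5p sequence was not used here.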
